A study of Mus musculus with 2 samples.

Results

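Neurons of the developing neocortex extend axons and dendrites while they leave the germinal zones, and 8 genes for the microtubules and growth cones that carry this extension were examined for nearby candidate enhancers. The genes were Tubb3, Stmn1, Stmn2, Map2, Mapt, Map1b, Dclk1 and Gap43, a list chosen with earlier results of these data known, and all 8 were found in the annotation, Map2 and Map1b under their older symbols Mtap2 and Mtap1b. A p300 peak was taken as belonging to a gene if its midpoint lay inside the gene body or within 500 kb of the gene's start site, taken from whichever transcript had the longest coding sequence. This rule gave 32 of the 6629 peaks, and no peak was given to more than 1 of the genes. The peaks come from a single chromatin immunoprecipitation against p300 in dorsal cerebral wall dissected from Swiss Webster mouse embryos at E14.5, from which the cortical hem, hippocampus and choroid plexus had been cut away. There was 1 p300 library and 1 input library, without replicates, and the input library was not analysed here. The tissue holds progenitors, migrating cells and cortical plate neurons together, so a peak cannot be assigned to any of these cell populations.

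p300 is a histone acetyltransferase and co-activator that is recruited to active enhancers by DNA-bound transcription factors. Growing neurites depend on microtubules assembled from alpha and beta tubulin, on stathmins, which bind free tubulin and destabilise microtubules, and on microtubule-associated proteins, which bind along the polymer. Growth cones, the motile tips of neurites, are rich in membrane proteins such as Gap43. The list of peaks gives position and width but no read count, score or fold enrichment, so the strength of a peak is unknown. Because the authors removed peaks at exons and within 2.5 kb of start sites, p300 at the promoters of these genes was not measured by the list.

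The labelled tissue was checked with a list of genes that mark the dorsal cortex and one that marks other tissues. All 12 dorsal cortex genes had a peak in their regulatory domain, against 21.3% of all protein-coding genes, and 5 of the 12 (Emx1, Pax6, Eomes, Neurod2 and Neurod6) had more peaks than the length of the domain would give (exact binomial test, one-sided, with p-values adjusted by Benjamini-Hochberg across protein-coding genes), which 1.14% of all protein-coding genes had. Of the 12 genes for liver, heart, muscle, blood, skin, gut, ventral forebrain, endothelium and microglia, 2 had a peak in the domain, Dlx2 with 1 and Pecam1 with 3, and 0 passed the test. Within 500 kb of the start site, 10 of these 12 genes had a peak, with a median of 1.5 and 7 at Dlx2 and 6 at Pecam1, and all 12 dorsal cortex genes did, with a median of 7.5. Of all protein-coding genes 69.9% had one, with a median of 1. By this measure the genes of other tissues were not lower than protein-coding genes at large.

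Inside the genes themselves lay 7 of the 32 peaks, all of them intronic: 1 in Map2 and 2 each in Map1b, Dclk1 and Gap43. The middle 300 bases of the peak nearest to the start site are shown for Map1b, Dclk1 and Gap43, since they are the sequences by which the intronic peaks can be compared. They are written on the plus strand of mm9, 5′ to 3′. Capitals mark matches on either strand to the 2 E-box words CATCTG and CAGCTG, the homeodomain word TAATTA, the Sox word AACAAT and a word for a dimer of Rfx factors. The Rfx word is GTTNCC followed after 2 bases by its reverse complement GGNAAC, with at most 1 mismatch over the 10 fixed bases.
Map1b, peak 1776, chr13:100271521-100271820: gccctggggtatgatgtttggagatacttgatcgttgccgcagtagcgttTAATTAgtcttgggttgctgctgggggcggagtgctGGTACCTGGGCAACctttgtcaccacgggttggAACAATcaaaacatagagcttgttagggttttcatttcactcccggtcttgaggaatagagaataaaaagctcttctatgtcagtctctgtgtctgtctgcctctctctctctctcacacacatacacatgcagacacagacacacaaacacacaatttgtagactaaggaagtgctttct
Dclk1, peak 3877, chr3:55155644-55155943: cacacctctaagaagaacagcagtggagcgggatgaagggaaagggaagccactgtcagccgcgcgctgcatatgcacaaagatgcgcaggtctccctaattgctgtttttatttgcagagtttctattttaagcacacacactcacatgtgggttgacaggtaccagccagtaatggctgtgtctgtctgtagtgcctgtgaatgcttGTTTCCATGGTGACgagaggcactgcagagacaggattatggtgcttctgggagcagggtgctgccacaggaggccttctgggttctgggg
Gap43, peak 2426, chr16:42269392-42269691: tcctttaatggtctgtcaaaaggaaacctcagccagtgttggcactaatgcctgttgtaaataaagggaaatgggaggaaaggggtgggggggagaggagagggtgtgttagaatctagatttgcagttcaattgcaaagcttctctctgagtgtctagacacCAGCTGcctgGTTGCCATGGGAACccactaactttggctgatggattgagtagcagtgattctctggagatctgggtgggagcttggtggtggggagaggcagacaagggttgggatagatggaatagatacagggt

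All 3 of these sequences held the Rfx word. In Gap43 it read GTTGCCATGGGAAC, with 0 mismatches. In Map1b it read GGTACCTGGGCAAC and in Dclk1 GTTTCCATGGTGAC, each with 1 mismatch. Rfx factors are winged-helix transcription factors best known for binding the X-box of genes for cilia. The authors reported an Rfx dimer motif as enriched in the whole peak set, and cited known roles of the family in brain development. The word was written down only after sequences of the intronic peaks had been seen, so its frequency among them is a description and was not tested. Among all 6629 peaks it was found in the middle 300 bases of 187 (2.82%), and in windows of the same length 10 kb away from those peaks in 52 (0.784%). Among the nearest intronic peaks of other protein-coding genes, 32 of 1453 had it (2.20%). The peaks farther into Map1b and Dclk1 and peak 2425 of Gap43 lacked it, and over all 7 intronic peaks of the 8 genes it was in 4 (57.1%). Of the 25 peaks outside the gene bodies, only peak 3765, upstream of Stmn2, had the word in its middle (4.00%). With 0 mismatches allowed the word was in 2 of the 32 peaks, both intronic, and in 35 of all peaks (0.528%). With up to 2 mismatches it was in 6 of the 32 and in 945 of all (14.3%).

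The intronic peaks of other genes of the neuronal cytoskeleton lacked the word in their middle 300 bases. A list of 37 tubulins, stathmins, microtubule-associated proteins, collapsin response mediators, growth cone membrane proteins, actin regulators and neurofilaments, written without use of this word, had 7 intronic peaks, in Dbn1, Dclk2, Dpysl5, Ncam1 and Dcx. The count was 0 of these 7. Of all peaks inside protein-coding genes 2.86% had the word, so 7 peaks are too few to show a difference. The word was in 4 of the 103 peaks inside or within 500 kb of the 37 genes (3.88%), against 2.82% of all peaks.

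The remaining words were each found in 8 to 11 of the 32 peaks, apart from the Nfi word, and the differences from the whole peak set were not tested. Of the 32 peaks, 11 had CATCTG in the middle 300 bases (34.4%, against 45.7% of all peaks), 10 had CAGCTG (31.3% against 30.9%), 11 had TAATTA (34.4% against 23.5%) and 8 had AACAAT (25% against 17.1%). A word for the Nfi dimer, TTGGC followed after 5 bases by GCCAA, was in 0 of the 32 and in 13 of all peaks (0.196%). At so low a share, 0 of 32 cannot show a difference. The word allows no mismatch, and the authors, who searched with motif matrices, reported enriched Nfi motifs in many more of these peaks. E-boxes are bound by proneural factors such as the Neurog and Neurod proteins, and homeodomain words by many cortical factors, but a match to a word does not show that a factor is bound.

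**Figure D1:**
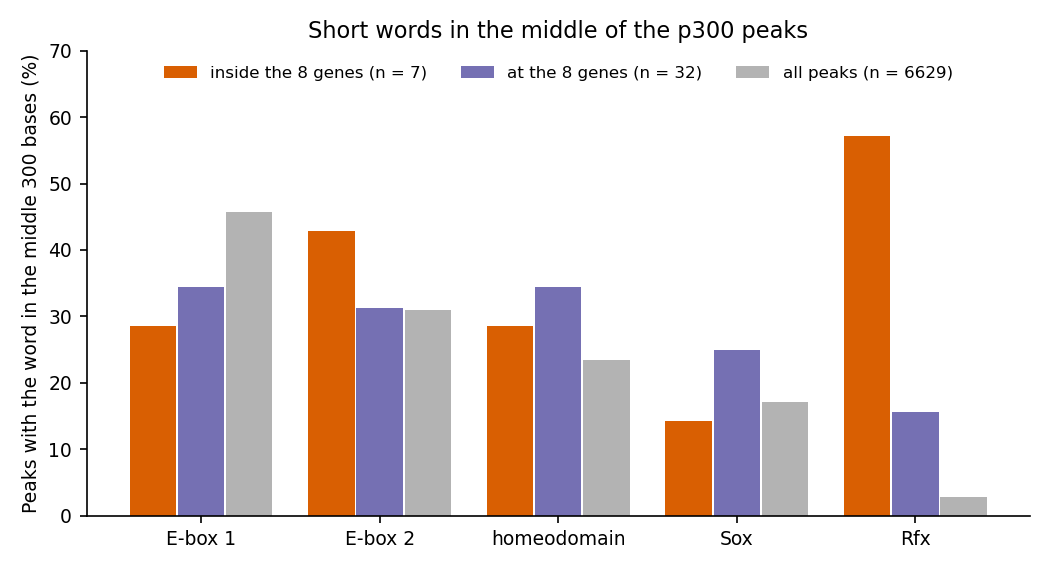
Share of peaks (%) with a word in their middle 300 bases, for the 7 peaks inside the 8 genes, the 32 peaks at the genes and all 6629 peaks. E-box 1 is CATCTG, E-box 2 is CAGCTG, homeodomain is TAATTA and Sox is AACAAT. The Rfx word, with at most 1 mismatch, was in 4 of the 7 intronic peaks and in 2.82% of all peaks. It was written down after sequences of the intronic peaks had been seen, so its bars are a description and were not tested.

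The peaks at the 8 genes were mostly distal. The median distance from the start site was 255.6 kb, 18 of the 32 lay over 200 kb away, 6 lay within 100 kb and 2 within 50 kb. Upstream of the start site lay 12 and downstream 20. The gene itself had the nearest protein-coding start site for 12 of the 32 peaks, and another gene was nearer for 20. Outside the 8 gene bodies, 13 peaks were in introns of other protein-coding genes and 12 were in none. None of the 32 overlapped an exon of the annotation, against 143 of all 6629 peaks (2.16%).

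**Figure D2:**
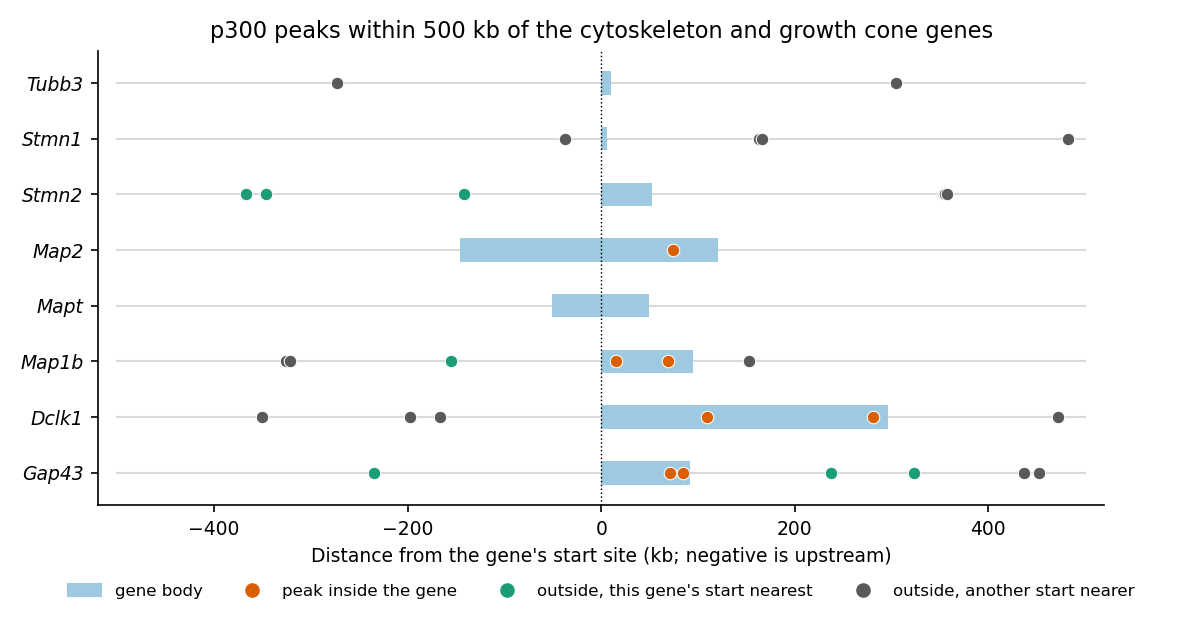
Midpoints of the 32 p300 peaks by distance in kb from the start site of each gene, with gene bodies as blue bars; bars reach to the left of 0 where other transcripts of the gene begin farther upstream. Gap43 has 7 peaks and Map1b has 2 within its body, 14.9 and 69.1 kb from the start, while the line of Mapt is empty.

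Tubb3, the beta tubulin isotype of neurons, had 2 peaks, both distal. Tubb3 (ENSMUSG00000062380) occupies bases 125935324 to 125945915 of chromosome 8 (plus strand). Its peaks were number 6155, 273.5 kb upstream and nearest to Sult5a1, and number 6156, 305.0 kb downstream. For 48.7% of protein-coding genes the nearest peak was at least as far away. The locus is dense in genes, with 24 other protein-coding start sites within 500 kb against a median of 15. Only 51.9% of the window was sequence taken as open to a listed peak, that is, farther than 2.5 kb from annotated starts and 500 bp from exons, against a median of 72.3%. The exon margin was set here and is approximate, since 143 of all listed peaks overlap an exon of this annotation. Both peaks fall inside Gm20388, a model gene of 1 transcript that spans 4.43 Mb and holds 49 peaks.

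The pair of stathmins differed in where their peaks lay. Stmn1 (ENSMUSG00000028832, chromosome 4, plus strand, 134024235 to 134029758) encodes the widely expressed stathmin. It had 4 peaks, the nearest of them (number 4547, 1340 bp) 37.3 kb upstream and 33.5 kb from the start site of Pafah2. Next came peaks 4548 and 4549, which are 1.71 kb apart in an intron of Man1c1, 163.5 and 166.1 kb downstream, and the last lay 482.5 kb downstream. Stmn2 (ENSMUSG00000027500, chromosome 3, plus strand, 8509527 to 8561604), a neuronal stathmin of the growth cone, had 6 peaks, 3 on each side. The 3 upstream peaks, 141.8, 346.9 and 366.8 kb away, were intergenic, and the start site of Stmn2 was the nearest for each. The 3 downstream peaks, 353.8 to 356.8 kb away, were packed into an intron of Mrps28 with gaps of 0.189 and 0.483 kb. Among the stathmins of the longer list, Stmn3 had 1 and Stmn4 had 3 peaks within 500 kb.

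The 3 microtubule-associated proteins named for that role ranged from 0 to 6 peaks. Map1b, which acts early in axon growth, occupies bases 100191419 to 100286557 of chromosome 13 (ENSMUSG00000052727, minus strand). Its 6 peaks included the one nearest to any of the 8 start sites, number 1776, 14.9 kb into the gene, and number 1775, 69.1 kb in, both in the intron numbered 2. For 96.2% of protein-coding genes the nearest peak was at least as far away as 14.9 kb. Upstream of Map1b lay peak 1777 at 155.4 kb, which is nearest to Map1b, and peaks 1778 and 1779 at 321.4 and 326.1 kb, which are nearest to Cartpt. The remaining peak was 152.5 kb downstream in an intron of a neighbouring gene.

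Map2, a microtubule-associated protein of dendrites, had a single peak. Map2 (ENSMUSG00000015222, chromosome 1, plus strand, 66221847 to 66489157) is 267.3 kb long, and peak 122 (921 bp) lies in intron 4 of the transcript used, 73.8 kb from its start. Unc80 has a start site 72.9 kb away on the other side. Measured from the outermost annotated start of Map2, the distance was 220.2 kb. No other peak was found for 787.4 kb on either side of peak 122, and the stretch free of peaks upstream of it was 1283.3 kb long from midpoint to midpoint.

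Mapt, which encodes the axonal protein tau, had 0 peaks within 500 kb. With the one-sided upper limit of 3 set for a count of 0, counting error allows up to 1.16 times the number expected from length. Mapt (ENSMUSG00000018411, chromosome 11, plus strand, 104092704 to 104193404) sits in 1760.6 kb between neighbouring peaks, a gap that 256 of the 6609 in the list equal or exceed (3.87%). This is a share of gaps and not of genes, and 30.1% of protein-coding genes had 0 peaks within 500 kb. The peaks nearest to Mapt were 597.0 kb upstream and 1163.6 kb downstream. For 25.6% of protein-coding genes the nearest peak was at least as far away, and 68.9% of the window was open to a listed peak. From the outermost annotated start the nearest peak was still 546.0 kb away.

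Dclk1, a kinase with doublecortin domains that bind microtubules in migrating neurons, had 6 peaks. Dclk1 (ENSMUSG00000027797, chromosome 3, plus strand, 55046448 to 55342986) is the longest of the 8 at 296.5 kb. It held peak 3877 in intron 3, 109.3 kb from the start, and the widest of the 32 peaks, number 3878 with 1522 bp, in intron 16, 281.0 kb from the start. Peak 3878 and one at 472.0 kb had Mab21l1 as the nearest start site. Of the 3 upstream peaks, those at 167.1 and 197.7 kb were nearest to Ccna1, and the third was 350.2 kb away. The related Dclk2 and Dcx had 3 and 4 peaks within 500 kb, 1 and 2 of them in introns.

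Gap43, a membrane protein of growth cones, had the most peaks of the 8 genes. Gap43 (ENSMUSG00000047261) occupies bases 42248555 to 42340764 of chromosome 16 (minus strand), and no other protein-coding start site lies within 500 kb of its own. Of its 7 peaks, 2426 and 2425 were 71.2 and 84.8 kb from the start in intron 2. A further 4 lay 237.7 to 452.4 kb downstream, inside Lsamp, a cell adhesion gene that overlaps the window, and 1 lay 235.0 kb upstream in intergenic sequence. Gap43 had the nearest start site for 5 of the 7, and Lsamp for the 2 farthest.

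Whether any of the 8 genes had more p300 peaks than sequence length alone would give was asked in the manner of the study, by a regulatory domain for each gene. The domain is a basal stretch of 5 kb before and 1 kb after the start, extended by up to 1 Mb to the neighbouring basal stretch. None of the 8 genes passed (0 of 8 with an adjusted p under 0.05), where 1.14% of all 22367 protein-coding genes did. Map1b came nearest, with 6 peaks in 0.550 Mb against 1.43 expected, a fold of 4.21 (95% interval 1.55 to 9.16, adjusted p = 0.191, one-sided exact binomial test). With domains limited by every annotated gene, Map1b kept 2 peaks in a shorter domain (fold 7.44), and with peaks of at least the median width it had 2 (fold 2.80), both with an adjusted p of 1 by the exact test. Dclk1 had 5 peaks against 1.54 (fold 3.25, interval 1.05 to 7.58) and Gap43 8 against 3.55 (fold 2.26, interval 0.974 to 4.44). The other 5 genes had 0 to 3 peaks in their domains, and Tubb3 and Mapt had none. Without adjustment 3 of the 8 had p under 0.05, against 4.33% of all genes. The intervals are exact Poisson intervals and cover counting error only. For a count of 0 the upper limit was instead set at 3, a one-sided limit that is tighter than the rule for other counts.

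**Figure D3:**
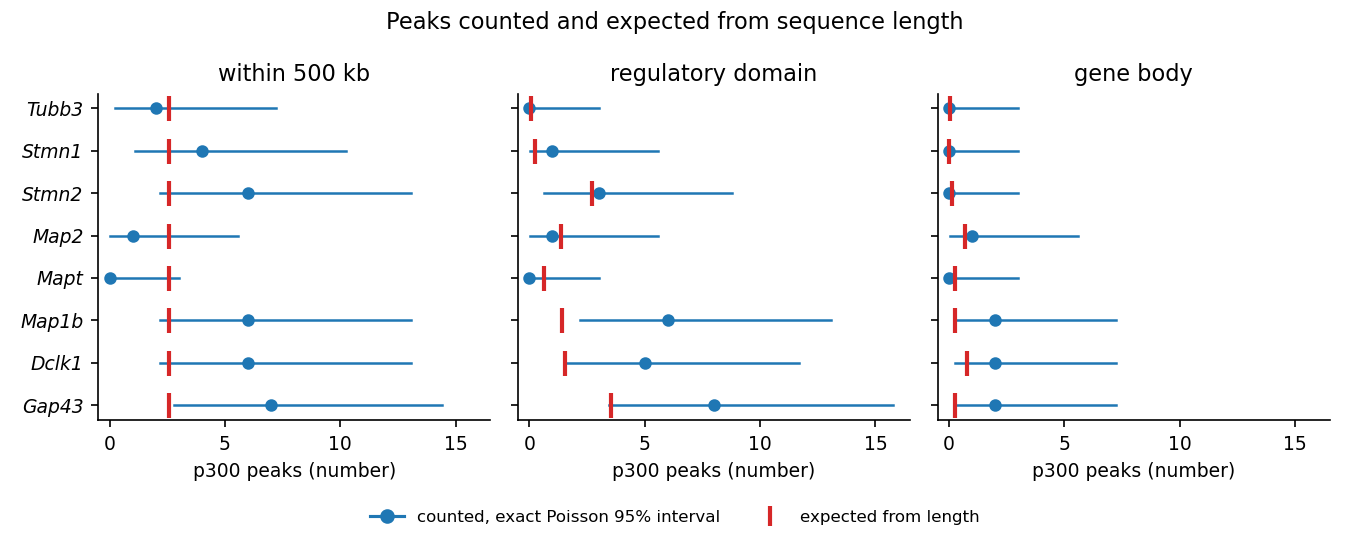
Number of p300 peaks counted within 500 kb of the start site, in the regulatory domain and in the gene body (points, with exact Poisson 95% intervals; for a count of 0 the line ends at 3), beside the number expected from assembled length (red marks). Map1b, Dclk1 and Gap43 had 6, 5 and 8 peaks in their domains, where 1.43, 1.54 and 3.55 were expected.

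Counted within 500 kb of the start site, which neighbouring genes do not shorten, 0 of the 8 genes passed and 4.09% of all protein-coding genes did. Each window was expected to hold 2.59 peaks. Gap43 had 7 (fold 2.70, 95% interval 1.09 to 5.57, adjusted p = 0.196), and Stmn2, Map1b and Dclk1 had 6 each (fold 2.32, interval 0.85 to 5.04, adjusted p = 0.383, all by the one-sided exact binomial test). Stmn1 had 4, Tubb3 2, Map2 1 and Mapt 0. The median of the 8 was 5 peaks and that of all protein-coding genes 1, and 7 of the 8 had at least 1 peak against 69.9% of all. At least 7 peaks were found at 8.58% of protein-coding genes, at least 6 at 12.6% and at least 4 at 24.8%. A gene needed 9 peaks to pass. Without adjustment 4 of the 8 had p under 0.05, against 12.6% of all genes. Stmn2, Map1b and Dclk1 were just under that limit, each with p = 0.0483 by the exact binomial test.

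**Figure D4:**
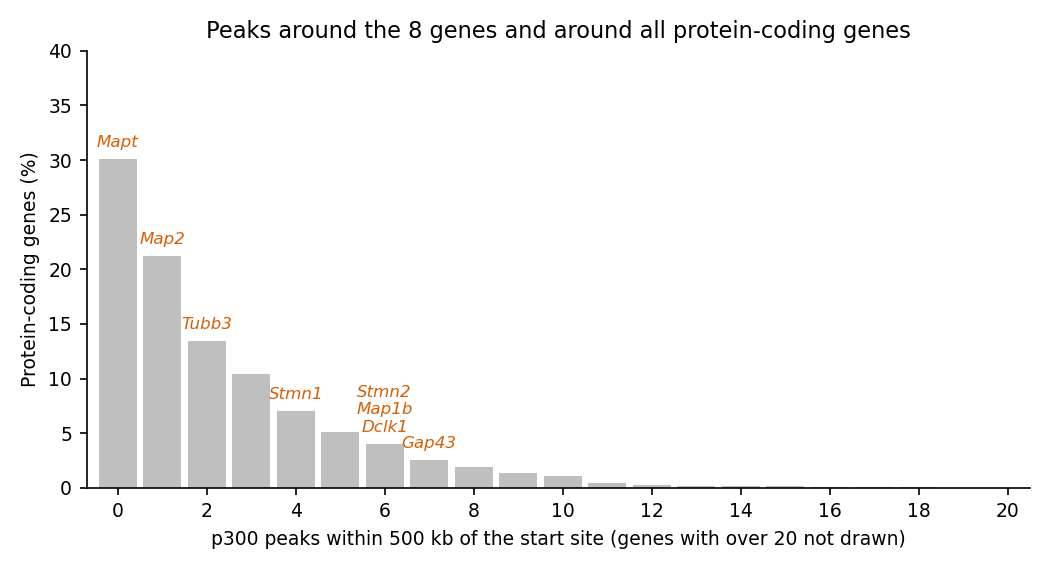
Share of the 22367 protein-coding genes (%) with each number of p300 peaks within 500 kb of the start site, with the 8 genes written above the number they had. Gap43 sits at 7 and Stmn2, Map1b and Dclk1 at 6, a number that 12.6% of genes reach, while Mapt is in the bar at 0.

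In the gene bodies 0 of the 8 passed either, against 0.219% of all protein-coding genes. Gap43 and Map1b held 2 peaks each where 0.239 and 0.247 were expected, folds of 8.37 (95% interval 1.01 to 30.2) and 8.11 (interval 0.983 to 29.3), with an adjusted p of 1 for both by the exact test. Dclk1 also held 2 but in a longer body (fold 2.60), and Map2 held 1 (fold 1.44). A peak inside the body was found in 4 of the 8 genes and in 6.57% of all protein-coding genes. These shares are not matched for length. The 4 bodies with a peak were 0.0922 to 0.297 Mb long, against a median of 0.0154 Mb for all protein-coding genes. The bodies of Tubb3 and Stmn1, 10.6 and 5.52 kb long, were the shortest and were expected to hold 0.0274 and 0.0143 peaks.

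In width and base composition the 32 peaks lay within the range of the list. Their median width was 938 bp, with quartiles of 803 and 1124 bp, against 1017 bp with quartiles of 860 and 1260 bp for all peaks. The narrowest, 595 bp, was at Gap43. At least as wide as the median of all peaks were 13 of the 32 and 4 of the 7 intronic ones. Median GC content was 44.8%, against 45.2% for all peaks. The genes differed among themselves, since the 6 peaks of Tubb3 and Stmn1 ran from 50.4 to 53.9% GC, while those of Stmn2 ran from 37.3 to 45.6%. A neighbour less than 5 kb away was found for 7 of the 32 (21.9%) and for 14.7% of all peaks. These differences were not tested, because peaks at the same gene share their locus.

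**Figure D5:**
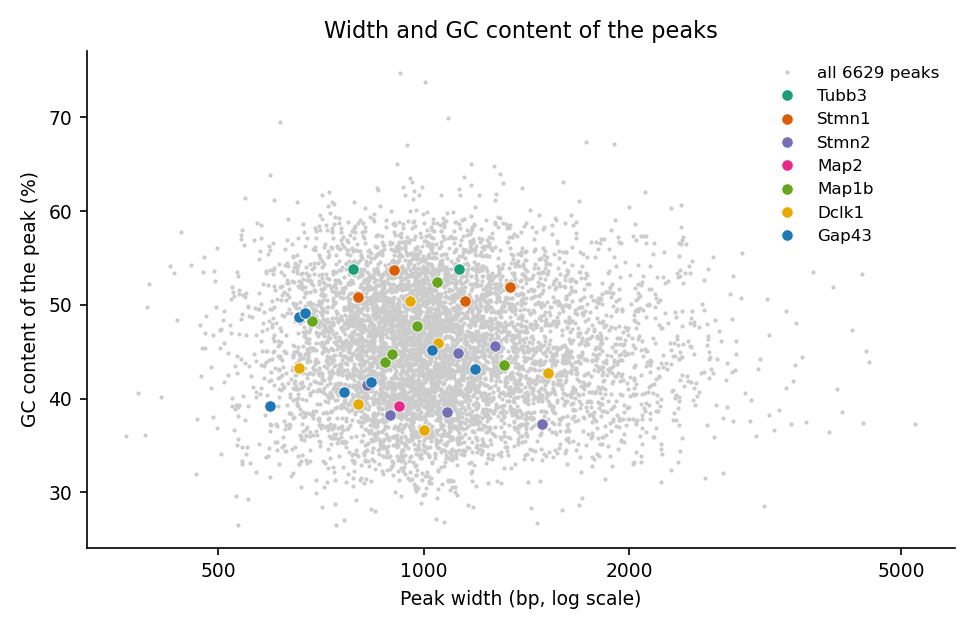
Width (bp, log axis) and GC content (%) of all 6629 peaks (grey) and of the 32 peaks at the genes (colours; Mapt has none). The coloured points lie between 595 and 1522 bp and between 36.6 and 53.9% GC, within the cloud of all peaks.

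Among the 37 other genes of the neuronal cytoskeleton and growth cone, 0 passed the domain test and 2 passed that within 500 kb, where 1.14% and 4.09% of all protein-coding genes did. The 2 were Mark2 with 9 peaks (fold 3.47, adjusted p = 0.0355) and Dpysl2 with 10 (fold 3.86, adjusted p = 0.0131, one-sided exact binomial test). Genes of this list are named here after their values were seen. Mark2 is a kinase of microtubule-associated proteins and Dpysl2 a collapsin response mediator that binds tubulin. Both had 0 peaks in their own domains, so that all of these peaks lay in or beyond the basal stretches of neighbouring genes. The median over the 37 genes was 3 peaks within 500 kb, 33 had at least 1 (against 69.9% of all protein-coding genes), and 5 had one inside the body (against 6.57%). By class the medians within 500 kb were 3 for the 5 tubulins, 2 for the 2 stathmins and for the 10 microtubule-associated proteins, 4 for the 5 collapsin response mediators and for the 5 growth cone membrane proteins, 2.5 for the 6 actin regulators and 2 for the 4 neurofilaments. In the domain test the lowest adjusted p values were 0.0790 for the tubulin gene Tubb2b, with 3 peaks in a short domain where 0.194 were expected, and 0.102 for the adhesion gene Ncam1, with 8 peaks where 2.09 were expected.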

How the data were processed

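One p300 library and 1 input library were made from the same tissue, and the p300 peak list was the file analysed. As the authors describe, reads were aligned to mm9 with ELAND, unique alignments were kept, and peaks were called with MACS 1.4 against the input and filtered of peaks at exons, near start sites or in non-unique sequence. The deposited file gives positions only, with no count, score or signal.

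The NCBIM37 assembly (mm9) and GENCODE vM1 were used for sequence and genes. Peaks were counted by midpoint and tested with one-sided exact binomial tests against assembled bases (2.56 Gb), adjusted by Benjamini-Hochberg over 22367 protein-coding genes; an adjusted p under 0.05 was called. These tests treat peaks as independent, which clustered peaks are not. The 8 genes and the lists were chosen with earlier results of these data known. Genes named beside a peak had the nearest start site for 2 or more peaks of a gene or for its nearest peak. Words were searched on both strands. Sequences were printed for the nearest intronic peak of a gene, and 1 of these 4 is not reported here. Scripts were tested on simulated data. Python 3.11.15, numpy 2.4.6, scipy 1.17.1 and matplotlib 3.10.9 were used. Alternatives changed the domains, windows, start sites, peaks counted and sequence searched.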

Additional observations from a re-analysis of the deposited data

How the results depend on the processing

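None of the 8 genes passed the domain or gene body tests under any alternative tried. Within 500 kb the count stayed at 0 under all but 1 alternative. With windows of 1 Mb, 1 gene passed, Tubb3, with 16 peaks (fold 3.09, adjusted p = 0.00312, exact binomial test). Of these peaks, 10 lie over 500 kb upstream. All 16 are nearer to the start site of another gene than to that of Tubb3. In all 120 comparisons of a fold for 1 gene with its main value, 111 stayed on the same side of 1 and 9 changed side. Some of the 111 could not have changed side. Where a gene had 0 peaks in a region, counting fewer peaks or a shorter region could only leave its fold at 0. When every annotated gene limited the domains, the folds of Stmn1, Stmn2 and Dclk1 were 0. Stmn2 also fell to 0.735 with the wider peaks alone (median width or more), 0.958 in sequence open to a listed peak and 0.772 within 250 kb. Within 500 kb, Tubb3 rose to 1.25 in sequence open to a listed peak, and the fold of Map2 in its body was 0 with the wider peaks. The domain fold of Map1b ranged from 2.80 to 7.44 and that of Dclk1, where above 0, from 2.07 to 3.88. The cause was not tested. The number of protein-coding genes past the domain test went from 255 to 154 with the wider peaks and to 158 with peaks under 5 kb apart joined, that past the window test from 914 to 454 and 515, and to 456 within 250 kb and 1536 within 1 Mb, and that past the body test from 49 to 19 and 22. Without adjustment, 4 of the 8 genes had p under 0.05 within 500 kb. That count was 1 or 2 with windows of 250 kb or 1 Mb, with the wider or joined peaks, and in sequence open to a listed peak. For the domains it was 3, and ranged from 1 to 3 over the alternatives. The number of peaks at the 8 genes was 17 within 250 kb, 59 within 1 Mb and 13 among the wider peaks, and 4 of the wider peaks were in gene bodies. Over whole peaks, CATCTG was in 19 of the 32 (59.4%, against 74.8% of all peaks), CAGCTG in 20 (62.5% against 56.3%) and AACAAT in 19 (59.4% against 48.4%). The start site and the Rfx word settings were added after the data were seen. No paired analysis was possible because there is 1 library of each kind. The list has no read counts, so the depth behind each peak is unknown.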
